A study of Mus musculus with 6 samples.

Results

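Dynlt1 encodes a light chain of cytoplasmic dynein, the motor that carries cargo towards the minus ends of microtubules, and the mouse genome holds several near-identical copies of it on chromosome 17. The copies were taken as the lines of the deposited gene table whose symbol starts with Dynlt1, and 4 of 23233 lines qualified: 1 line named Dynlt1a, 1 named Dynlt1b and 2 named Dynlt1f. All 4 had been tested by the authors, so none was lost to a filter on low values. They were chosen because their Ret null and wildtype values differed, so those values are given as a description and carry no test of the copies. The 12 lines that overlap chromosome 17 from 6.0 to 6.7 Mb were described beside them.

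Guts were dissected from embryos of stage E10.5, with 3 homozygous for a null allele of Ret (Ret null) and 3 wildtype. C57BL/6J is the strain named for all 6, and the series title calls the embryos male. Ret encodes a receptor of GDNF signalling that neural crest cells need to colonise the gut. Neither the sequence that the null allele lacks nor the number of embryos behind a sample is stated. RNA was selected on oligo dT beads and made into Illumina libraries, and the deposited table gives 1 FPKM value per genotype (fragments per kilobase of transcript, scaled to the mapped fragments of the library). It holds no value for a single sample, so neither the spread among the 3 samples of a genotype nor their depth can be given.

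Cytoplasmic dynein is built on a pair of heavy chains that hold the motor domains, with intermediate and light intermediate chains in its tail. Light chains of 3 families, Tctex (Dynlt), Dynll and roadblock (Dynlrb), bind the intermediate chains as dimers. The Dynlt1 protein, also called Tctex-1, has been reported to link dynein to cargo proteins, and in the embryonic mouse brain it has been linked to the production of neurons from progenitors. Its gene lies in the t-complex region of the chromosome.

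The coding sequences of the copies differed at 1 base. In the GENCODE M21 transcripts of GRCm38 (the build also named mm10), each of 4 annotated genes, Dynlt1a, Dynlt1b, Dynlt1c and Dynlt1f, had 5 exons and a coding sequence of 342 bases with the stop codon. Those of Dynlt1a, Dynlt1c and Dynlt1f were identical, and Dynlt1b differed from Dynlt1f by A21C, counted from the first base of the start codon (the base of Dynlt1b stands before the number). That base is in codon 7 and does not change the encoded protein. The first 60 coding bases are shown because they hold the only coding difference, in capitals:
Dynlt1a: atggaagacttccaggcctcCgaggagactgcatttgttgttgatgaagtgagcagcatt
Dynlt1b: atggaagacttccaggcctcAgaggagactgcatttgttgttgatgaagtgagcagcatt
Dynlt1c: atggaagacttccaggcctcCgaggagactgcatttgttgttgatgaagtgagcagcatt
Dynlt1f: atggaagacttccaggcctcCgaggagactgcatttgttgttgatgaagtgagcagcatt
A further annotated copy, the processed pseudogene Dynlt1-ps1 on chromosome 6, had the same 342 bases as Dynlt1f, and 0 lines of the table carry its name.

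Most of each transcript therefore occurs in another gene over the length of a read. The series names paired reads of 75 bp. For each gene a single annotated transcript was examined, and any part of a Dynlt1 transcript outside its deposited line was left out. The deposited line on Dynlt1f spans 6646606 to 6655939 and runs beyond its transcript (6648938 to 6655900). What lies beyond was not examined. Each transcript was then cut into all overlapping stretches of 75 bases. They were counted singly, and read pairs, which either mate can place, were not examined. Of these stretches 78.7% in Dynlt1a, 82.6% in Dynlt1b, 94.7% in Dynlt1c and 89.2% in Dynlt1f were also found, on either strand, in a transcript of another gene. The stretches found in no other gene numbered 143 of 670, 121 of 696, 39 of 735 and 75 of 697 in that order. Within the coding sequence 21 of 268 stretches of Dynlt1b and 0 of 268 in each of the other copies were found in no other gene. By the same count 0% of Dynlt3, the other Dynlt gene with a line in the table, was shared. How the authors' software divided reads among the copies is not given in the sources used here, so the value of each single copy is uncertain. The sum over the copies is uncertain too, since FPKM is scaled to length and the deposited lines cover unlike parts of the transcripts.

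**Figure D1:**
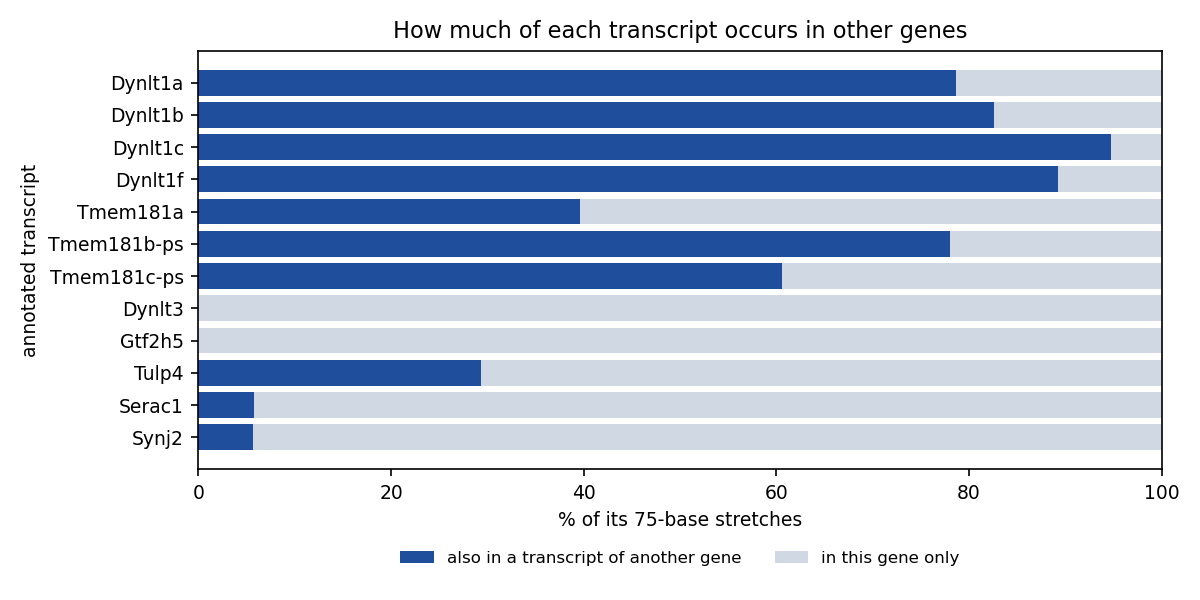
Percentage of the overlapping 75-base stretches (x axis) of each annotated transcript (y axis) that also occur in a transcript of another gene (dark) or in that gene only (pale). Parts of the Dynlt1 transcripts outside the deposited lines were left out, and the deposited line on Dynlt1f runs beyond the transcript examined. The 4 Dynlt1 transcripts lie between 78.7% and 94.7% shared, and Dynlt3 and Gtf2h5 are at 0%.

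The copies could also be compared before their start sites. The RefSeq promoter table (GRCm38.p6) held 2 of the 4 genes, Dynlt1c and Dynlt1f. A stretch of 142 bases directly before the start that this table uses for Dynlt1f matched, at 97.9% of bases, a stretch that ends 108 bases before the start it uses for Dynlt1c. The RefSeq gene record of Dynlt1f reaches slightly further upstream, into this stretch. Both stretches end where the deposited lines described next begin. The pair is shown with the 3 differing bases in capitals. The lines at these positions had log2 ratios of opposite sign, but the sign at Dynlt1c is within its error (0.40 ± 0.63). No link between these bases and the ratios was tested. Dynlt1c is read from the plus strand at chr17:6601529-6601670 and Dynlt1f from the minus strand at chr17:6655940-6656081:
Dynlt1c: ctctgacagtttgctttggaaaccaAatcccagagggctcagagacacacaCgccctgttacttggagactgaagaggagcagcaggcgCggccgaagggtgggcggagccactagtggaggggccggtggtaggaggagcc
Dynlt1f: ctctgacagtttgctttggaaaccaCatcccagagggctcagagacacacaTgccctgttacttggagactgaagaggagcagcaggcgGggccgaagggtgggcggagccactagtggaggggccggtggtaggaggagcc
Counted from the first base shown, the differences from Dynlt1c to Dynlt1f were A26C, C52T and C90G. No other motif or site was searched for in these sequences.

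The symbols of the 2 Dynlt1f lines do not separate their positions, so each is called here by the RefSeq gene it lies on. All coordinates are mm10, as in the deposited file, with starts raised by 1 to count from 1. The Dynlt1a line spans 6310545 to 6317474 on chromosome 17 and the Dynlt1b line 6430112 to 6436295. A line named Dynlt1f spans 6601671 to 6607899, of which 98.1% lies on Dynlt1c (6601779 to 6607891 in RefSeq), and is called the Dynlt1c-position line. The other Dynlt1f line spans 6646606 to 6655939, wholly inside the RefSeq gene Dynlt1f, and is called the Dynlt1f-position line. No line of the table is named Dynlt1c. Dynlt1a and Dynlt1f are on the minus strand and Dynlt1b and Dynlt1c on the plus strand, and the protocol does not state that strand was kept.

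The Ret null and wildtype guts also differed in markers of cell types and in sex-linked RNA. Ret stood at 0.0354 FPKM in Ret null gut and 8.80 FPKM in wildtype gut, as the labels have it. All 6 enteric crest and neuron markers fell (summed level 14.7 FPKM in Ret null, 61.7 FPKM in wildtype), as did all 6 skeletal muscle and somite markers (5.15 FPKM in Ret null, 78.0 FPKM in wildtype). Ret, the gene of the null allele, is 1 of the enteric markers and is in their sum, so its own fall says nothing of crest cells. All 6 hepatic markers rose (301 FPKM in Ret null, 20.01 FPKM in wildtype), and so did all 4 gut mesenchyme markers (375 FPKM in Ret null, 102 FPKM in wildtype) and all 4 gut endoderm markers (111 FPKM in Ret null, 46.9 FPKM in wildtype). By the authors' q under 0.05, 8.88% of all tested lines were lower in Ret null gut and 5.69% higher. Of the motile cilia markers, only Foxj1 was tested, at 1.28 FPKM in Ret null gut and 0.792 FPKM in wildtype gut. Xist stood at 31.8 FPKM in Ret null gut and 0.136 FPKM in wildtype gut, although the series calls the embryos male. The 4 Y-linked genes fell, with log2 ratios of -0.71 to -0.99. That range also holds the log2 ratios of Dynlt1a and Dynlt1b given below. The log2 ratio of the Dynlt1f-position line (-1.02 ± 0.28) overlaps it within its error, and that of the Dynlt1c-position line (0.40 ± 0.63) lies above it. The part of these differences in the Dynlt1 values was not tested, and in bulk guts fewer cells of a type and less RNA per cell cannot be told apart.

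The Dynlt1f-position line held most of the summed FPKM of the copies. It stood at 19.8 FPKM in Ret null gut and 40.2 FPKM in wildtype gut, a log2 ratio of -1.02 ± 0.28. The error after ± is the standard error implied by the authors' test statistic, on the log2 scale. The authors' q-values for the copies called below are smaller than a normal test with this error would give. The Ret null value was 2.03-fold below the wildtype value. In Ret null gut 66.9% of the 13430 tested lines lay below this line's level, and in wildtype gut 85.5% did. The deposited lines cover unlike parts of the transcripts. Inside them are 744 of 3321 annotated bases of Dynlt1a, 809 of 2589 of Dynlt1c and all 771 of Dynlt1f. Of the 75-base stretches of the whole Dynlt1c transcript, 76.7% also occur in transcripts of Dynlt1f, and of those of the whole Dynlt1a transcript 39.6% do. How far reads of Dynlt1a and Dynlt1c enter the Dynlt1f-position level was not tested.

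Dynlt1a and Dynlt1b were lower by similar ratios at lower levels. Dynlt1a stood at 4.47 FPKM in Ret null gut and 8.31 FPKM in wildtype gut, a log2 ratio of -0.89 ± 0.39. Dynlt1b stood at 3.76 FPKM in Ret null gut and 7.07 FPKM in wildtype gut, a log2 ratio of -0.91 ± 0.41. The log2 ratios of these copies and of the Dynlt1f-position line lie within 1 implied standard error of each other.

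The Dynlt1c-position line did not share that direction. It stood at 3.84 FPKM in Ret null gut and 2.90 FPKM in wildtype gut, a log2 ratio of 0.40 ± 0.63. Its error is the widest of the 4 and spans 0, so at this precision neither a higher nor a lower level could be told. In Ret null gut the order of the levels was Dynlt1f position, Dynlt1a, Dynlt1c position and Dynlt1b, and in wildtype gut it was Dynlt1f position, Dynlt1a, Dynlt1b and Dynlt1c position. The last 3 of the Ret null order lie between 3.76 and 4.47 FPKM, and no error per level is available to order them.

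The q-values in the authors' deposited table were 0.000775 for the Dynlt1f-position line, 0.0245 for Dynlt1a, 0.0278 for Dynlt1b and 0.575 for the Dynlt1c-position line. By q under 0.05, 3 of 4 copies were called, all lower in Ret null gut. Of all tested lines 14.6% were called by this rule, with 8.88% lower and 5.69% higher. Other rules called 9.81% (q under 0.01), 17.5% (q under 0.1), 8.62% (at least 1.5-fold as well) and 12.5% (of lines at 5 FPKM or more). The copies were picked from this contrast, so nothing is read from their count. A second p was read from the normal distribution at the authors' test statistic and adjusted over all lines that have one (the normal p), and it called 4.5% of those lines. By it the Dynlt1f-position line was called, with an adjusted value of 0.010 over all those lines. The other copies were not, with 0.255 for Dynlt1a and 0.294 for Dynlt1b.

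**Figure D2:**
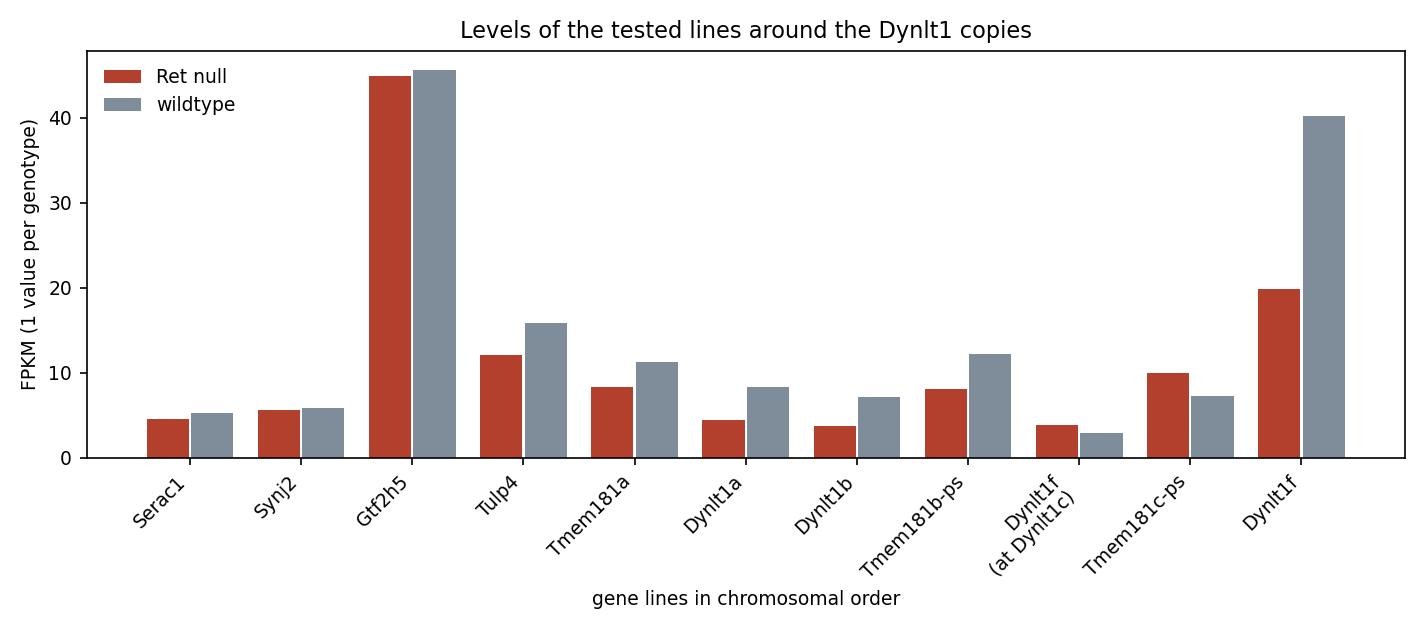
FPKM (y axis, 1 authors' value per genotype, no error available) of the 11 tested lines overlapping the window, in chromosomal order (x axis), with Ret null bars left of wildtype bars. The Dynlt1f-position line has 19.8 FPKM in Ret null and 40.2 FPKM in wildtype gut, while Gtf2h5 stands at 44.95 FPKM in Ret null and 45.59 FPKM in wildtype gut.

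Summed over the 4 lines, Dynlt1 reached 31.9 FPKM in Ret null gut and 58.5 FPKM in wildtype gut. FPKM is scaled to length, so this sum can also depend on how reads were divided among the lines. The log2 ratio of the sums was -0.88, or 45.5% lower, and no test was made of it. Within the sum the Dynlt1f position made up 62.1% in Ret null gut and 68.7% in wildtype gut. The Dynlt1c position made up 12.0% in Ret null gut and 4.96% in wildtype gut. These shares, and those of the other lines, carry the limit given above, that the deposited lines cover unlike parts of the transcripts. The shares of Dynlt1a (14.0% in Ret null, 14.2% in wildtype) and Dynlt1b (11.8% in Ret null, 12.1% in wildtype) differed by under 1 percentage point.

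**Figure D3:**
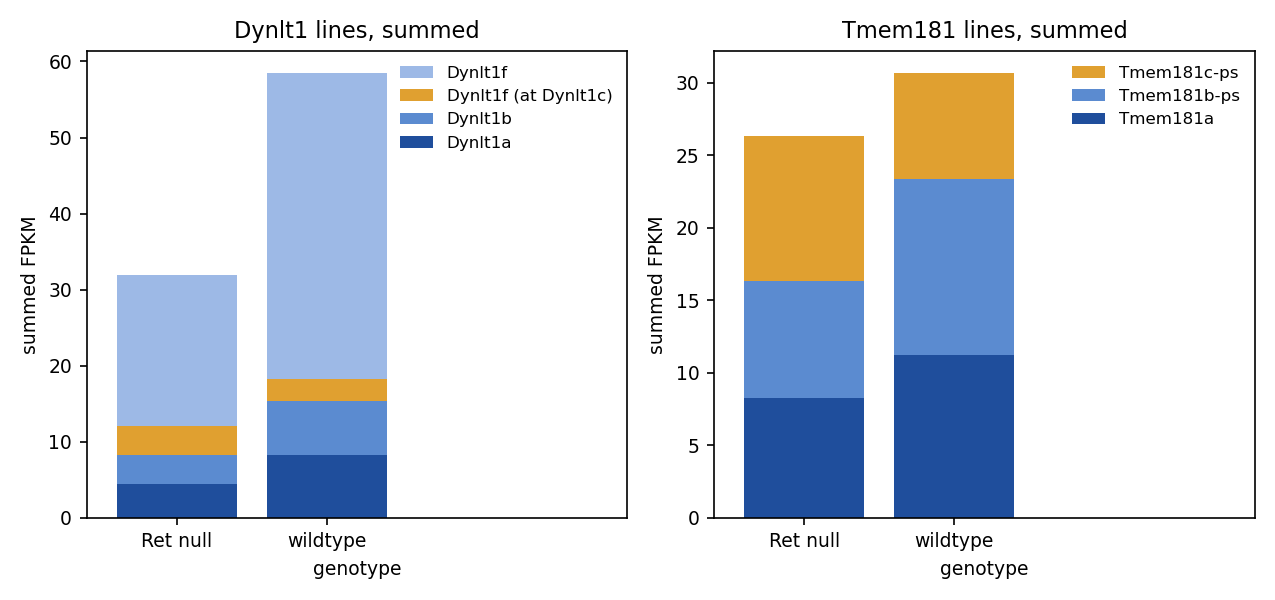
Summed FPKM (y axis) of the 4 Dynlt1 lines (left panel) and the 3 Tmem181 lines (right panel) in Ret null and wildtype gut (x axis), with each line as a segment. The Dynlt1 sums are 31.9 FPKM in Ret null and 58.5 FPKM in wildtype gut, the Tmem181 sums 26.3 FPKM in Ret null and 30.7 FPKM in wildtype gut, and the Dynlt1c and Tmem181c-ps segments are taller in Ret null gut.

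Copies of Tmem181 alternate with those of Dynlt1 along the same stretch of the chromosome. Tmem181a encodes a transmembrane protein, whose human form has been reported as a host factor for a bacterial toxin, and Tmem181b-ps and Tmem181c-ps are annotated as pseudogenes. Tmem181a, the line before Dynlt1a, stood at 8.25 FPKM in Ret null gut and 11.3 FPKM in wildtype gut, a log2 ratio of -0.45 ± 0.24. Tmem181b-ps, the line after Dynlt1b, stood at 8.09 FPKM in Ret null gut and 12.1 FPKM in wildtype gut, a log2 ratio of -0.58 ± 0.19. Tmem181c-ps, the line after the Dynlt1c position, stood at 10.004 FPKM in Ret null gut and 7.28 FPKM in wildtype gut, a log2 ratio of 0.46 ± 0.21. The log2 ratio of Tmem181c-ps was positive, like that of the Dynlt1c-position line before it and unlike that of the Dynlt1f-position line after it, and the sign of the Dynlt1c-position line is within its error. Tmem181b-ps likewise lies between lines of both signs, Dynlt1b and the Dynlt1c position. The q-values in the authors' deposited table were 0.0352 for Tmem181a, 0.000775 for Tmem181b-ps and 0.00318 for Tmem181c-ps, and 0 of the 3 passed with the normal p (adjusted p of 0.541, 0.0529 and 0.316). At an unadjusted normal p under 0.05, 1 of the Tmem181 lines was lower and 1 higher.

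The Tmem181 sum had a log2 ratio nearer 0 than the Dynlt1 sum. It was 26.3 FPKM in Ret null gut and 30.7 FPKM in wildtype gut, a log2 ratio of -0.22 with no test. The Tmem181 copies share sequence as well: 39.6% of the 75-base stretches of Tmem181a, 78.0% of Tmem181b-ps and 60.6% of Tmem181c-ps occur in another gene. Part of that sharing is with Dynlt1: 10.02% of the stretches of Tmem181a also occur in transcripts of Dynlt1a and 2.52% in transcripts of Dynlt1f.

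The other tested lines of the window carry no copies of these genes and had smaller ratios. Gtf2h5, a subunit of the transcription and repair factor TFIIH, stood at 44.95 FPKM in Ret null gut and 45.6 FPKM in wildtype gut (-0.02 ± 0.17). Serac1, needed for the lipid composition of mitochondria, stood at 4.48 FPKM in Ret null gut and 5.27 FPKM in wildtype gut (-0.23 ± 0.30). Synj2, an inositol phosphatase gene whose transcript shares sequence with Serac1, stood at 5.58 FPKM in Ret null gut and 5.78 FPKM in wildtype gut (-0.05 ± 0.29). Tulp4, a tubby-like protein gene, was lower, at 12.1 FPKM in Ret null gut and 15.8 FPKM in wildtype gut (-0.39 ± 0.18, q = 0.000775 in the authors' deposited table, normal p adjusted to 0.334). It also shares sequence with annotated pseudogenes, at 29.3% of its stretches. Sytl3 was not tested and stood under 0.2 FPKM in both genotypes.

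Over the whole window 6 of 11 tested lines were called lower and 1 higher, and the median log2 ratio was -0.39, against 0.01 over all tested lines. Of the 7 Dynlt1 and Tmem181 lines 6 were called, and of the 4 other lines 1 was. The Dynlt1 and Tmem181 lines share sequence, so their calls are not separate from each other. On the rest of chromosome 17, 11.6% of 644 tested lines were called, and of all tested lines 14.6%. Among the 9 tested lines within 0.7 Mb on either side of the window 2 were called. Ezr, which links actin to the membrane of epithelial cells, stood at 46.0 FPKM in Ret null gut and 29.3 FPKM in wildtype gut (0.65 ± 0.18), and Rps6ka2, a ribosomal S6 kinase, at 12.9 and 15.8 FPKM in Ret null and wildtype gut (-0.29 ± 0.18). The window was named for its values, so its counts are a description. With the normal p 1 line of the window, the Dynlt1f-position line, was called.

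**Figure D4:**
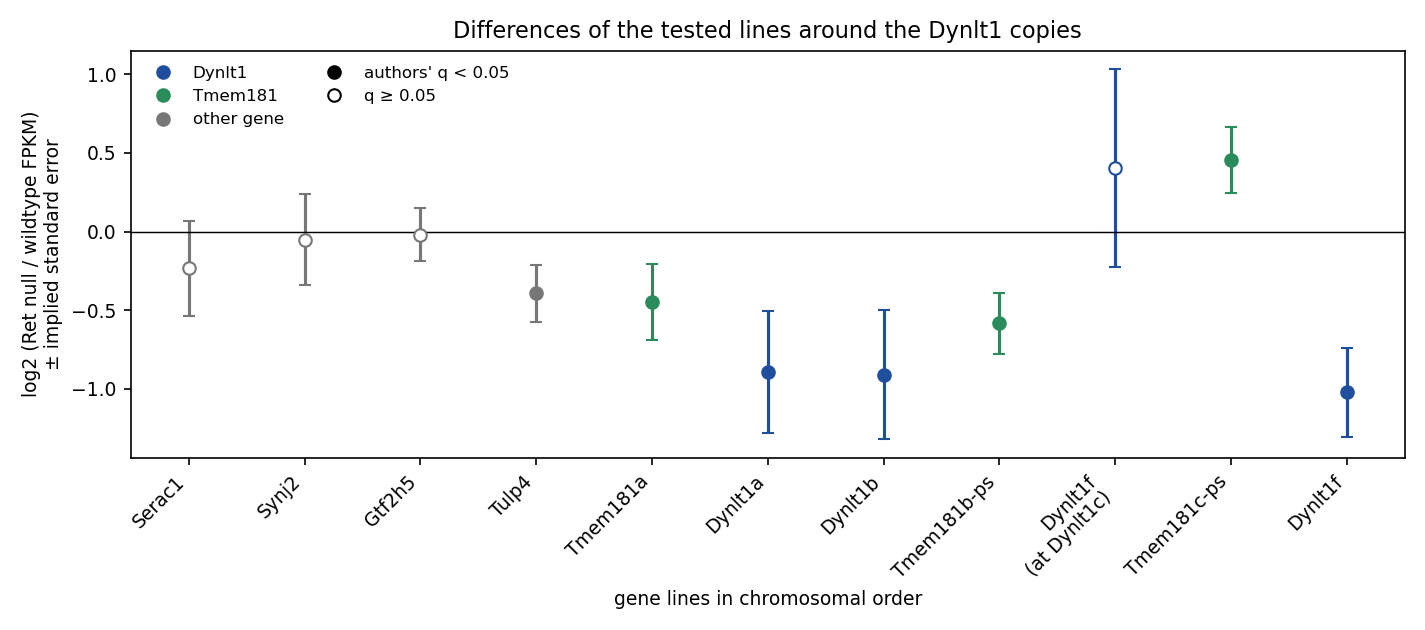
Log2 ratio of Ret null over wildtype FPKM ± the implied standard error (y axis) for the 11 tested lines in chromosomal order (x axis), filled where the authors' q was under 0.05. The Dynlt1a, Dynlt1b and Dynlt1f-position lines lie between -0.89 and -1.02, and the Dynlt1c-position line (0.40) and Tmem181c-ps (0.46) are the only points above 0.

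Tested genes of the rest of the dynein machinery did not show ratios as low. In the dynein, dynactin and adaptor lists, 46 lines were found and 41 tested, of which 3 fell and 2 rose by the authors' q. This was 12.2% of them, near the 14.6% of all tested lines, with a median log2 ratio of 0.02. The lowest log2 ratio among the 41 was that of Bicd1, -0.52 ± 0.43. Its error range overlaps those of Dynlt1a, Dynlt1b and the Dynlt1f-position line. With the normal p 0 were called, and at an unadjusted normal p under 0.05, 1 was lower and 2 were higher.

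No chain of dynein 1, the motor to which Dynlt1 binds, passed. The heavy chain Dync1h1 stood at 29.6 FPKM in Ret null gut and 34.6 FPKM in wildtype gut (-0.22 ± 0.19). The intermediate chain Dync1i2, the type of subunit that Dynlt1 docks on, stood at 64.2 FPKM in Ret null gut and 67.2 FPKM in wildtype gut (-0.07 ± 0.18). The light intermediate chains Dync1li1 and Dync1li2, which bind adaptors, had log2 ratios of -0.02 and -0.05. Of the 4 tested chains 0 passed the authors' q, and 1, Dync1h1, had an unadjusted p under 0.05 in the authors' Cuffdiff test and 0 an unadjusted normal p under 0.05. The neuronal intermediate chain Dync1i1 was not tested, at 0.251 FPKM in Ret null gut and 0.566 FPKM in wildtype gut. Its log2 ratio at these low levels was -1.17, with no error available.

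Among the other light chains 1 of 4 tested members rose. Dynlt3, the closest relative of Dynlt1 and on the X chromosome, stood at 14.0 FPKM in Ret null gut and 13.4 FPKM in wildtype gut (0.07 ± 0.21). The summed Dynlt1 level was therefore 2.28 times the Dynlt3 level in Ret null gut and 4.38 times it in wildtype gut. Dynll2 rose, at 87.4 FPKM in Ret null gut and 68.2 FPKM in wildtype gut (0.36 ± 0.18, q = 0.00372 in the authors' deposited table), and its relative Dynll1 stood at 171 FPKM in Ret null gut and 155 FPKM in wildtype gut (0.14 ± 0.16). The roadblock chain Dynlrb1 stood at 128.0 FPKM in Ret null gut and 129.9 FPKM in wildtype gut (-0.02 ± 0.15), and Dynlrb2 was not tested. Per length, the FPKM of Dynll1, Dynll2 and Dynlrb1 was above the Dynlt1 sum in both genotypes, and that of Dynlt3 was below it.

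Of the other Tctex family genes, Tctex1d2, a light chain of the ciliary motor dynein 2, rose to 12.5 FPKM in Ret null gut against 7.33 FPKM in wildtype gut (0.77 ± 0.33, q = 0.0322 in the authors' deposited table). Tctex1d1 and Tctex1d4 were not tested. The other dynein 2 genes did not move with it: the heavy chain Dync2h1 fell, to 2.18 FPKM in Ret null gut against 2.91 FPKM in wildtype gut (-0.42 ± 0.21, q = 0.0117 in the authors' deposited table). Dync2li1, Wdr34 and Wdr60, the light intermediate and intermediate chains, had log2 ratios of 0.13, 0.01 and 0.06 and did not pass.

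Dynactin, the complex that joins dynein to its cargo, had 12 tested members and none passed. The authors' Cuffdiff test and the normal p each gave 0 members at an unadjusted p under 0.05. The log2 ratios ran from -0.08 (Dctn4) to 0.16 (Dctn1), and Dctn1, the subunit that binds dynein and microtubules, stood at 47.2 FPKM in Ret null gut and 42.1 FPKM in wildtype gut. Among 16 tested adaptors and regulators 2 fell: Hook3, an adaptor that activates dynein, with 7.54 FPKM in Ret null gut and 10.05 FPKM in wildtype gut (-0.41 ± 0.17, q = 0.00145 in the authors' deposited table), and the centrosomal protein gene Cdk5rap2 (-0.34 ± 0.19, q = 0.0153 in the authors' deposited table). The lowest ratio in the list was that of the adaptor gene Bicd1, at 0.798 FPKM in Ret null gut and 1.15 FPKM in wildtype gut, which did not pass.

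**Figure D5:**
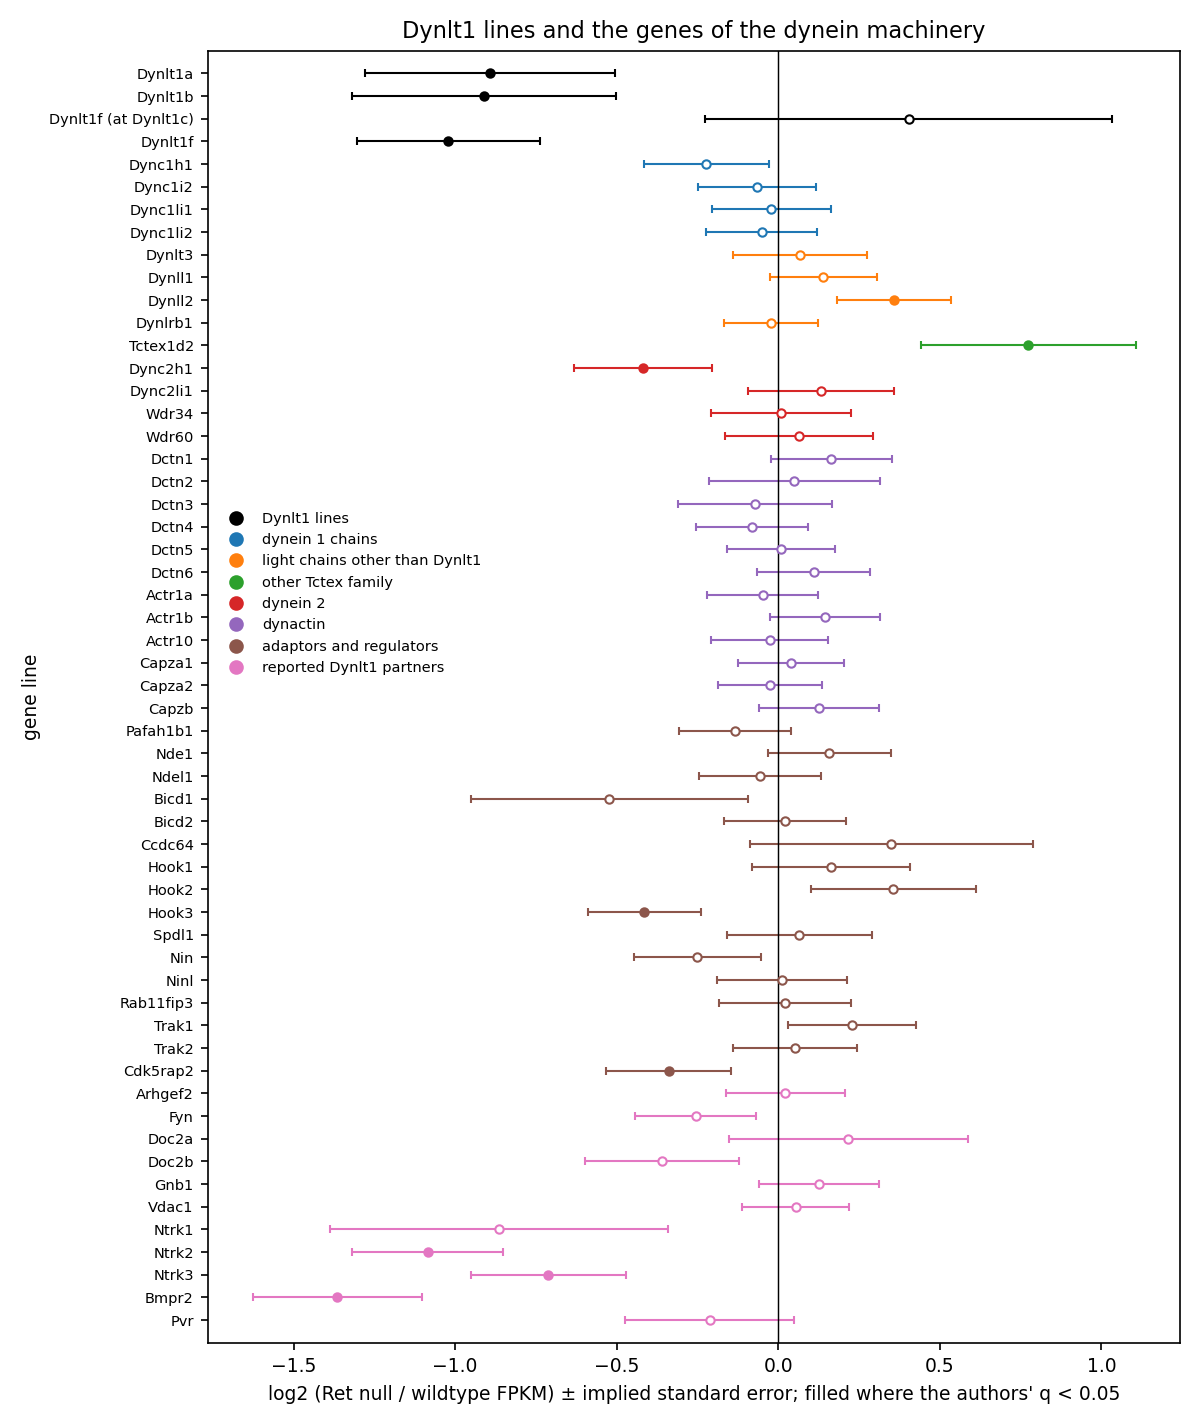
Log2 ratio of Ret null over wildtype FPKM ± the implied standard error (x axis) for the 4 Dynlt1 lines and every tested gene of the 7 lists (y axis, coloured by list), filled where the authors' q was under 0.05. Of the Dynlt1 lines 3 lie at or under -0.89, while the 41 dynein, dynactin and adaptor genes lie between -0.52 and 0.77.

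Among 11 tested genes whose proteins have been reported to bind Dynlt1, 3 fell and 0 rose, which is 27.3% of them, against 14.6% of all tested lines called and 8.88% called lower. The members that fell were the neurotrophin receptors Ntrk2 and Ntrk3 and the BMP receptor Bmpr2. Ntrk2 stood at 3.11 FPKM in Ret null gut and 6.60 FPKM in wildtype gut (-1.08 ± 0.23). Ntrk3 stood at 5.48 FPKM in Ret null gut and 8.98 FPKM in wildtype gut (-0.71 ± 0.24), and Bmpr2 at 3.35 FPKM in Ret null gut and 8.62 FPKM in wildtype gut (-1.37 ± 0.26). All 3 had q = 0.000775 in the authors' deposited table. At an unadjusted p under 0.05 in the authors' Cuffdiff test, 6 were lower and 0 higher, against 1814 lower and 1331 higher of all 13430 tested lines. With the normal p 2 were called lower, Ntrk2 and Bmpr2, and Ntrk3 was not (adjusted value 0.0653). Arhgef2, a guanine nucleotide exchange factor that Tctex-1 binds in neural progenitors, stood at 31.9 FPKM in Ret null gut and 31.4 FPKM in wildtype gut (0.02 ± 0.18). These genes are not part of the motor.

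By the distance between log2 ratios, which compares only the 2 genotype values, the nearest of 9881 lines at 5 FPKM or more were Rassf4, Kdm5d and Gap43 to Dynlt1b. For the Dynlt1f-position line they were 3110007F17Rik, Itga4 and Snhg9, and for the Dynlt1c-position line 1300002E11Rik, Skap2 and Nudc. With a pair of values per gene many lines are as close, so the names describe the size of a ratio only.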

How the data were processed

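Guts from E10.5 mouse embryos (3 Ret null samples, 3 wildtype samples) were profiled by RNA sequencing. Picard, TopHat2, Cufflinks, Cuffdiff and the build mm10 are named, without versions, in the submitters' processing notes. Their settings, and the annotation behind the gene symbols, are not given here. Per the file headers, the deposited table holds 1 FPKM value per genotype, computed by the authors. The column letters were read as wildtype and homozygous null. The p-value, q-value and test statistic (a score) come from the authors' Cuffdiff run, per the file headers. The deposited p-values reach no lower than 5e-05.

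Of 23234 lines, 1 with records run together was left out. Log2 ratios were recomputed from FPKM, with no pseudocount. The implied standard error is the log2 ratio divided by the test statistic, with a median of 0.39 from 1 to 5 FPKM and 0.18 from 20 to 100 FPKM. No counts are given, so depth is unknown. Nothing in the labels says that samples came from separate litters, so p-values may measure technical spread only. A line was called at q under 0.05 in the authors' table. The normal p used 13422 lines, since 8 tested lines had no statistic, and its adjustment was tested on simulated data. Members, lists and the window were chosen with earlier results of these data known. Named genes were the Dynlt1 lines, the window's tested lines, Ret, all tested dynein chains and Tctex genes, up to 4 called members of the other lists, and the 3 nearest lines by log2 ratio. Others were named after their values were seen. Sequences came from GENCODE M21 and the RefSeq GRCm38.p6 promoter table. Python 3.11.15, pandas 2.3.3 and scipy 1.17.1 were used.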

Additional observations from a re-analysis of the deposited data

How the results depend on the processing

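The sign of the log2 ratio was the same for all 4 Dynlt1 lines and their sum with 1 or 0.1 FPKM added and after centring on the median line (0.01). Dynlt1a (-0.89) and Dynlt1b (-0.91) were not called at q under 0.01 or with the normal p, which left 1 called copy, the Dynlt1f-position line. The window count of 7 became 4 at q under 0.01, 1 with the normal p and 3 with a 1.5-fold minimum. The dynein, dynactin and adaptor count of 5 became 2, 0 and 1 under the same settings, and the count of 3 reported partners became 6 at q under 0.1 and 2 with the normal p. Over all tested lines the 1956 calls became 604 with the normal p, 1158 with a 1.5-fold minimum and 1249 at 5 FPKM or more. The cause of these changes was not tested beyond the stricter rules themselves. No paired analysis was possible because the table holds 1 value per genotype, and for the same reason no replicate could be left out. The copies share most of their sequence, and the implied standard error of the Dynlt1c position was 0.63. Lines within 2-fold of its wildtype level had a median of 0.345. For Dynlt1a, Dynlt1b and the Dynlt1f position the errors were 0.39, 0.41 and 0.28. The medians of lines near their wildtype levels were 0.23, 0.24 and 0.18. The reason for the wider errors was not tested.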
